A study of Drosophila melanogaster with 216 samples.

Results

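Old male fruit flies that had been raised on a poor larval diet were compared with old males raised on standard food, to ask whether the diet of the larva was still visible in the transcriptome at the end of adult life. The comparison held 21 of the 216 arrays of the series, 10 of males raised on 0.25SY and 11 of males raised on 1SY. They were chosen by sex, by larval diet and by an age of 90% cohort mortality, and adult diet was kept in the model as a covariate. SY stands for sugar and yeast. 0.25SY and 2.5SY food contained 0.25 and 2.5 times the sugar and yeast of the standard laboratory food, 1SY, and emerging adults were spread over the same 3 foods, so that each larval diet was followed by each adult diet.

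The flies were virgins of 1 laboratory stock population of Drosophila melanogaster, and no mutant or transgene was involved. Each array held RNA from the whole bodies of 5 flies, and every group of one sex, age and pair of diets had 4 arrays. The ages were 1 day after emergence, middle age when 10% of the cohort had died, and old age when 90% had died. Sampling by mortality means that larval diet and age in days cannot be told apart where cohorts lived for different times. In whole bodies, fewer cells of a type and less RNA per cell cannot be told apart either. The arrays of a group were drawn from 1 cohort, so p-values measure the spread between pools of flies from that cohort.

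Of the 24 arrays labelled as old males of these 2 larval diets, 3 were left out because their profile went against the label. Array 1 of larval 0.25SY and adult 2.5SY correlated best with a group of old females (r = 0.9971, against 0.8268 with its own group), and its spermatid and sperm genes averaged 5.24 on the log2 scale where the 21 arrays lay between 10.02 and 10.84. Array 3 of larval 0.25SY and adult 1SY correlated best with 1-day-old males (r = 0.9972, against 0.9706 with its own group). Array 1 of larval 1SY and adult 0.25SY correlated with its own group at 0.9694 and best with another group of old males (r = 0.9715). Its mean over 18 female germline genes was 9.93, where the arrays kept reached at most 7.25. Over 18 eggshell and yolk genes its mean was 8.42, where the highest value of the arrays kept was 6.54 apart from 2 arrays. These 2 were array 3 of larval 0.25SY and adult 0.25SY at 7.135 and array 1 of larval 1SY and adult 2.5SY at 8.075, and results without them are given below where they differ. The 21 arrays had medians between 7.275 and 7.416, and each correlated with the rest of its group at 0.9952 or more.

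Growth of a fly larva depends on dietary protein, which drives protein synthesis through the TOR and insulin pathways. Ribosomes are built in the nucleolus. There RNA polymerase I transcribes the ribosomal RNA precursor, small nucleolar ribonucleoproteins modify it, and a long series of assembly factors, helicases, GTPases and exosome subunits cuts and folds it onto the ribosomal proteins, while RNA polymerase III supplies the 5S and transfer RNAs. The genes of the assembly factors are commonly transcribed together, and nutrient supply is among the best known inputs to their level.

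Larval diet left a small and mostly downward difference in old males. At an adjusted p under 0.05 (limma, Benjamini-Hochberg over all 18769 probe sets), 241 probe sets were lower and 32 higher in males raised on 0.25SY than in males raised on 1SY, which is 1.28% and 0.17% of those tested and 1.45% in both directions together. The absolute differences of these 273 probe sets had a median of 0.21 on the log2 scale and lay between 0.12 and 0.68. The median difference over all probe sets was 0.0008. With 1 probe set per gene, 215 of 11982 genes fell (1.79%) and 26 rose (0.217%). The falls were spread over the genome, with 43 genes on the X chromosome, 39 on 2L, 49 on 2R, 37 on 3L and 47 on 3R. The split between directions depended on scaling: with every array centred on its own median, 30 probe sets were lower and 17 higher, against 241 and 32 without centring.

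Genes for making ribosomes were prominent among those that fell. Of 27 gene lists, ribosome biogenesis had the most calls, with 20 of 84 measured genes lower (23.8%, against 1.79% of all genes), none higher, and a median difference of −0.16 on the log2 scale, against −0.01 over all genes. With arrays centred on their medians none of the 84 was called (median −0.15), and with quantile normalization repeated 5 were (median −0.14). Of the 84 genes, 81 had a negative difference, as had 54.9% of all genes, and the 3 exceptions were Non1, Ns2 and Rrp6. The mean level of the 84 genes had a lowest, median and highest value of 8.21, 8.32 and 8.40 in the 10 arrays of larval 0.25SY, against 8.37, 8.47 and 8.62 in the 11 arrays of larval 1SY. The ranges of the groups overlapped between 8.37 and 8.40. The mean was lower after larval 0.25SY within each adult diet, in groups of 3 or 4 arrays, but none of the 84 genes was called within any adult diet. On adult 1SY food the arrays of the larval diets overlapped (8.21 to 8.40 against 8.37 to 8.585), and on the other adult foods they did not. On adult 0.25SY food the mean was 8.29 in males raised on 0.25SY and 8.46 in males raised on 1SY, on adult 1SY food it was 8.31 against 8.45, and on adult 2.5SY food 8.36 against 8.51.

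Among the single genes of this list, the nucleolar core proteins are the most familiar. Nop56, a core protein of the box C/D particles that guide ribose methylation of ribosomal RNA, had a lowest, median and highest log2 value of 10.00, 10.20 and 10.48 after larval 0.25SY and of 10.26, 10.64 and 10.72 after larval 1SY. Its difference was −0.30 (SE 0.0641, adjusted p = 0.0272 by limma), with 6 of the 10 arrays below every array of larval 1SY. Fib, the fibrillarin methyltransferase of the same particles, had 9.01, 9.24 and 9.47 after larval 0.25SY and 9.31, 9.47 and 9.70 after larval 1SY, a difference of −0.23 that only just passed (adjusted p = 0.0492). NHP2, of the box H/ACA particles that guide pseudouridylation, was lower by the same measure (−0.25, adjusted p = 0.0307). Sas10, of the small subunit processome, had 7.91, 8.02 and 8.32 after larval 0.25SY and 8.12, 8.36 and 8.52 after larval 1SY (−0.28, adjusted p = 0.0232). Nop56, Fib, NHP2 and Sas10 were chosen after their values were seen, as were the assembly factors RIOK2, Tsr1, Noc2 and Ns3 below.

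The assembly factors fell by similar amounts. The DEAD-box helicase pit, named pitchoune, had a lowest, median and highest log2 value of 8.13, 8.21 and 8.39 after larval 0.25SY and of 8.20, 8.51 and 8.805 after larval 1SY (−0.26, SE 0.0528, adjusted p = 0.0272). Bystin, bys, which acts on the precursor of the small subunit, had 8.53, 8.69 and 8.91 after larval 0.25SY, against 8.815, 8.96 and 9.17 after larval 1SY (−0.25, adjusted p = 0.0265), and 8 of its 10 arrays lay below all arrays of larval 1SY. Further factors of the small subunit fell, the kinase RIOK2 by 0.20 and Tsr1 by 0.20 on the log2 scale. For the large subunit, Noc2 fell by 0.24 and the nucleostemin GTPase Ns3 by 0.25. The exosome subunit Rrp42, which trims the ends of ribosomal RNA precursors, fell by 0.24 (adjusted p = 0.024). The smallest adjusted p of the list belonged to l(1)G0004 (−0.22, adjusted p = 0.0209).

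**Figure D1:**
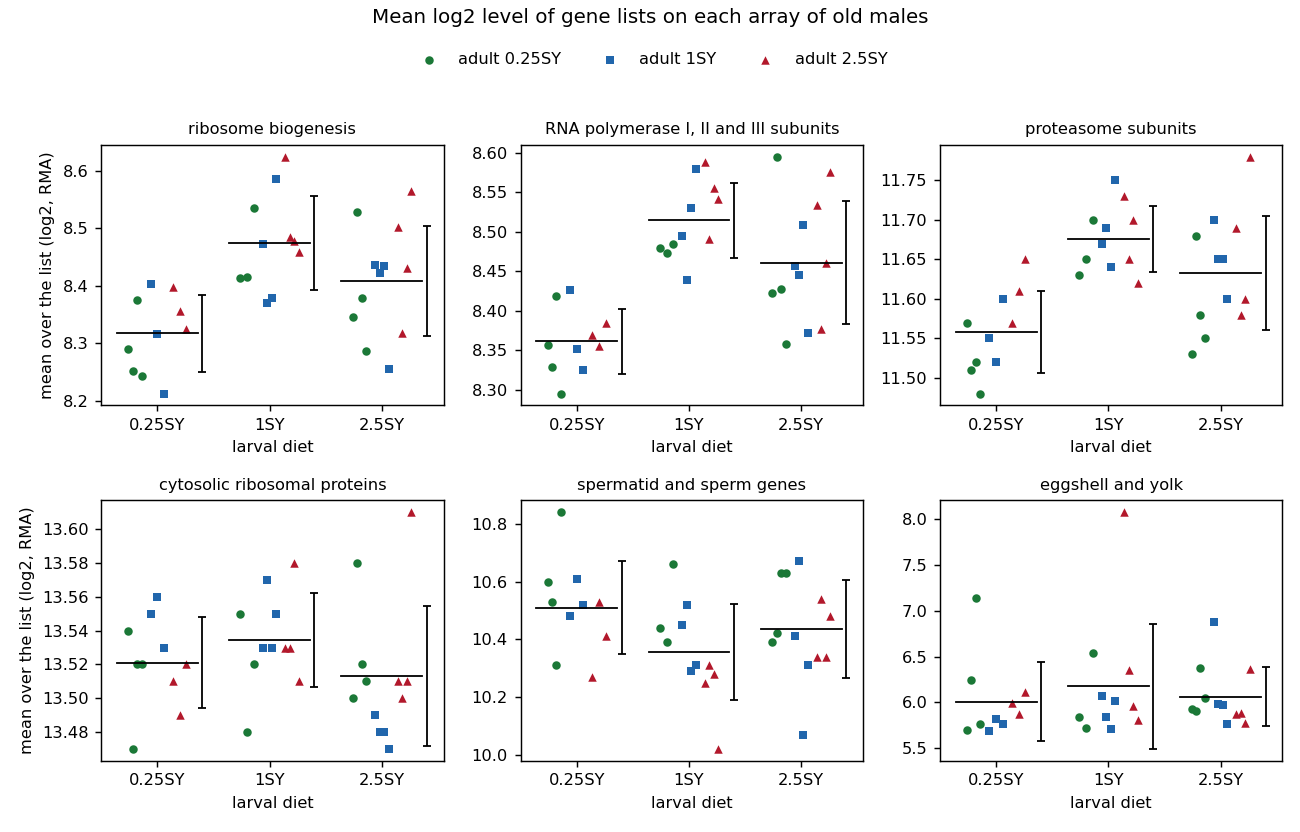
Mean log2 level of 6 gene lists in each old male array. In each panel larval 0.25SY is on the left, larval 1SY in the middle and larval 2.5SY on the right. Points are coloured by adult diet, with lines at the mean and bars of 1 SD. The 10 arrays of larval 0.25SY lie between 8.21 and 8.40 for ribosome biogenesis and the 11 arrays of larval 1SY between 8.37 and 8.62, whereas the cytosolic ribosomal proteins lie between 13.47 and 13.56 after larval 0.25SY and between 13.48 and 13.58 after larval 1SY.

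The subunits of the RNA polymerases moved with them. Of 21 measured subunits of RNA polymerases I, II and III, 5 were lower (23.8%, against 1.79% of all genes) and none was higher. All 21 had a negative difference (median −0.16), as had 54.9% of all genes. The number lower was 0 with centred arrays and 1 with quantile normalization repeated, both with a median of −0.14, and 1 to 10 when 1 array was left out. The list mean had a lowest, median and highest value of 8.295, 8.36 and 8.43 after larval 0.25SY and of 8.44, 8.495 and 8.59 after larval 1SY, so that the arrays of the 2 larval diets did not overlap. Polr2L and Polr2K are small subunits that all 3 polymerases share. Polr2L had 10.39, 10.65 and 10.81 after larval 0.25SY and 10.65, 10.96 and 11.12 after larval 1SY (−0.24, SE 0.0507, adjusted p = 0.0272), and Polr2K, chosen after its values were seen, fell by 0.20 (adjusted p = 0.0441) with 9 of 10 arrays below all arrays of larval 1SY. Polr1E, a subunit of RNA polymerase I that also counts among the ribosome biogenesis genes, fell by 0.25 (adjusted p = 0.0403). Polr3A, the largest subunit of RNA polymerase III, had 7.785, 7.985 and 8.11 after larval 0.25SY and 7.99, 8.125 and 8.30 after larval 1SY (−0.18, adjusted p = 0.0262), and Polr3F fell by 0.21 (adjusted p = 0.0306). The catalytic subunits of RNA polymerase I did not pass the test. Polr1A differed by −0.16 (adjusted p = 0.0583) and Polr1B by −0.23 (adjusted p = 0.0529), and Polr3B, of RNA polymerase III, by −0.19 (adjusted p = 0.0964).

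The machinery that uses ribosomes was touched less evenly. Of 47 translation factors, 5 were lower (10.6%, against 1.79% of all genes) and 1 was higher (2.13%, against 0.217%), with a median of −0.05. Those that fell included eIF2beta, a subunit of the factor that carries the initiator transfer RNA, and eIF2Bepsilon and eIF2Bbeta of the exchange factor that recharges it. eIF2Bepsilon had a lowest, median and highest value of 9.68, 9.74 and 10.00 after larval 0.25SY and of 9.865, 10.03 and 10.10 after larval 1SY (−0.19, adjusted p = 0.0279). eIF2beta fell by 0.15 (adjusted p = 0.0345) and eIF2D by 0.20 (adjusted p = 0.0272). Of 21 cytosolic aminoacyl-tRNA synthetases, the enzymes that load amino acids onto transfer RNAs, alpha-PheRS (−0.17) and GlnRS (−0.16) were lower (9.52%). Of the 21, 20 had a negative difference (median −0.11). Of 69 mitochondrial ribosomal proteins, 4 fell (5.8%) and 68 had a negative difference (median −0.10). Those 4 were mRpS29, mRpL1, mRpL21 and mRpL38, by 0.18 to 0.19. With centred arrays no gene of these 3 lists was called. With quantile normalization repeated, 1 mitochondrial ribosomal protein and 1 translation factor were lower and no synthetase was, and when 1 array was left out the mitochondrial ribosomal proteins called lower numbered 0 to 12.

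Among the structural proteins of the cytosolic ribosome, none of the 30 measured genes passed. Of these, 24 had a negative difference, and the median was −0.01. The list mean was 13.52 ± 0.026 (SD, n = 10) after larval 0.25SY and 13.53 ± 0.0272 (SD, n = 11) after larval 1SY. RpL3 differed by −0.04 (adjusted p = 0.486) and RpL34a by −0.07 (adjusted p = 0.454). Oxidative phosphorylation, with 73 genes, also had none called and a median of −0.04.

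Some genes of protein turnover fell as well. Of 26 subunits of the constitutive proteasome, the protease that degrades ubiquitinated proteins, 4 were lower (15.4%, against 1.79% of all genes) and none was higher. All 26 had a negative difference (median −0.11). With centred arrays 1 of them was lower (median −0.09). Prosbeta5, the subunit with chymotrypsin-like activity, had a lowest, median and highest value of 12.37, 12.53 and 12.60 after larval 0.25SY and of 12.62, 12.71 and 12.86 after larval 1SY (−0.19, SE 0.0371, adjusted p = 0.0209). It was 1 of 7 probe sets in which the 2 groups of arrays did not overlap at all, which is 0.0373% of those tested, and all 7 were lower after larval 0.25SY. Rpt3, an ATPase of the regulatory particle, had 11.03, 11.19 and 11.28 after larval 0.25SY and 11.26, 11.40 and 11.57 after larval 1SY (−0.23, adjusted p = 0.0177). Rpn3 of the same particle fell by 0.20 and Prosalpha7 of the core by 0.12. The cytosolic chaperonin CCT, which folds actin and tubulin, had 4 of its 8 subunits lower (50%, against 1.79% of all genes). They were CCT1, CCT3, CCT6 and CCT8, by 0.16 to 0.22. This list was added after the values were seen. With 1 array left out at a time, CCT8 kept its call in 21 of 21 cases, CCT6 in 19, and CCT1 and CCT3 in 6 each. Of the 11 heat shock protein genes, none was called and the median was −0.01.

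Of the 215 genes that fell, 40 belonged to any of the 27 lists and 175 to none. The 4 CCT genes are counted among the 175, since the CCT list was added later. Those named in this paragraph were chosen after their values were seen. Several serve the secretory pathway: Manf, a secreted protein of the endoplasmic reticulum, had 11.44, 11.56 and 11.67 after larval 0.25SY and 11.68, 11.74 and 11.84 after larval 1SY (−0.20, adjusted p = 0.0193), which left no overlap. The disulfide isomerase CaBP1 (−0.25), SrpRalpha of the signal recognition particle receptor (−0.24), the coatomer subunits zetaCOP (−0.28) and gammaCOP (−0.16) and the coat protein Sec13 (−0.17) were lower too. The p24 cargo receptor eca had no overlap between the groups either (−0.17, adjusted p = 0.0209). Hsc70-3, an endoplasmic reticulum chaperone looked at in the same way, was not called. It was called in 0 of 39 alternative settings, with differences from −0.16 to −0.07. The nuclear pore proteins Nup43, Nup107 and Rae1 fell by 0.27, 0.19 and 0.23. No list of secretory pathway or nuclear pore genes was made, so the share of each that fell was not measured. In mitochondria, the inner membrane protein Stoml2 had 10.00, 10.04 and 10.13 after larval 0.25SY and 10.14, 10.27 and 10.42 after larval 1SY (−0.23, adjusted p = 0.0115), again without overlap. Coq5 and Coq6, enzymes of ubiquinone synthesis, fell by 0.32 and 0.21, and Nfs1, the cysteine desulfurase of iron-sulfur cluster assembly, by 0.20. Signalling genes were also among the falls, the BMP ligand gbb (−0.22, adjusted p = 0.0152) and the Toll pathway kinase pll (−0.21, adjusted p = 0.0272).

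The largest single falls lay outside these groups. Hayan, a serine protease of the cascade that activates prophenoloxidase for melanization, had a lowest, median and highest value of 6.57, 6.88 and 7.52 after larval 0.25SY and of 7.20, 7.615 and 8.16 after larval 1SY. Its difference of −0.68 (SE 0.104, adjusted p = 0.00673) was the largest of any gene called, and 9 of 10 arrays lay below all arrays of larval 1SY. CG17107 had the same difference with a wider spread (−0.68, SE 0.155, adjusted p = 0.0345). CG32536 had 5.64, 6.17 and 6.50 after larval 0.25SY and 6.49, 6.64 and 7.06 after larval 1SY (−0.56, SE 0.0732, adjusted p = 0.00304), with 9 of 10 arrays below those of larval 1SY. The zinc transporter gene Zip89B had 7.60, 7.835 and 8.45 after larval 0.25SY and 8.003, 8.44 and 8.86 after larval 1SY (−0.50, adjusted p = 0.0272). Sp212, a serine protease gene, fell by 0.39 (adjusted p = 0.0229), again in 9 of 10 arrays below the whole of larval 1SY. CG10962, CG9701, CG13306 and CG13965 completed the 10 largest falls, by 0.33 to 0.52. None of the 28 antimicrobial and immune-induced peptide genes passed, and 24 of them had a negative difference (median −0.12).

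The fall of the taste receptor gene Gr59a was uneven. Its call held in 15 of 38 alternative settings, and in 9 of 21 with a single array left out. The gene was dim, with a mean under the log2 value of 5 that the filter on dim probe sets required. It had 4.06, 4.41 and 4.92 after larval 0.25SY and 4.21, 5.09 and 6.32 after larval 1SY (−0.60, SE 0.142, adjusted p = 0.0402), with only 1 of 10 arrays below all those of larval 1SY. The difference was −0.06 on adult 0.25SY food, −1.30 on adult 1SY food and −0.44 on adult 2.5SY food. On adult 1SY food alone, Gr59a was the single gene called (adjusted p = 0.00164, 0.00533% of probe sets), and no probe set was called within the other 2 adult diets. The test of whether the larval difference varied with adult diet called no probe set by limma, while 1113 had an unadjusted p under 0.05, and Gr59a did not pass in it (adjusted p = 0.301).

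**Figure D2:**
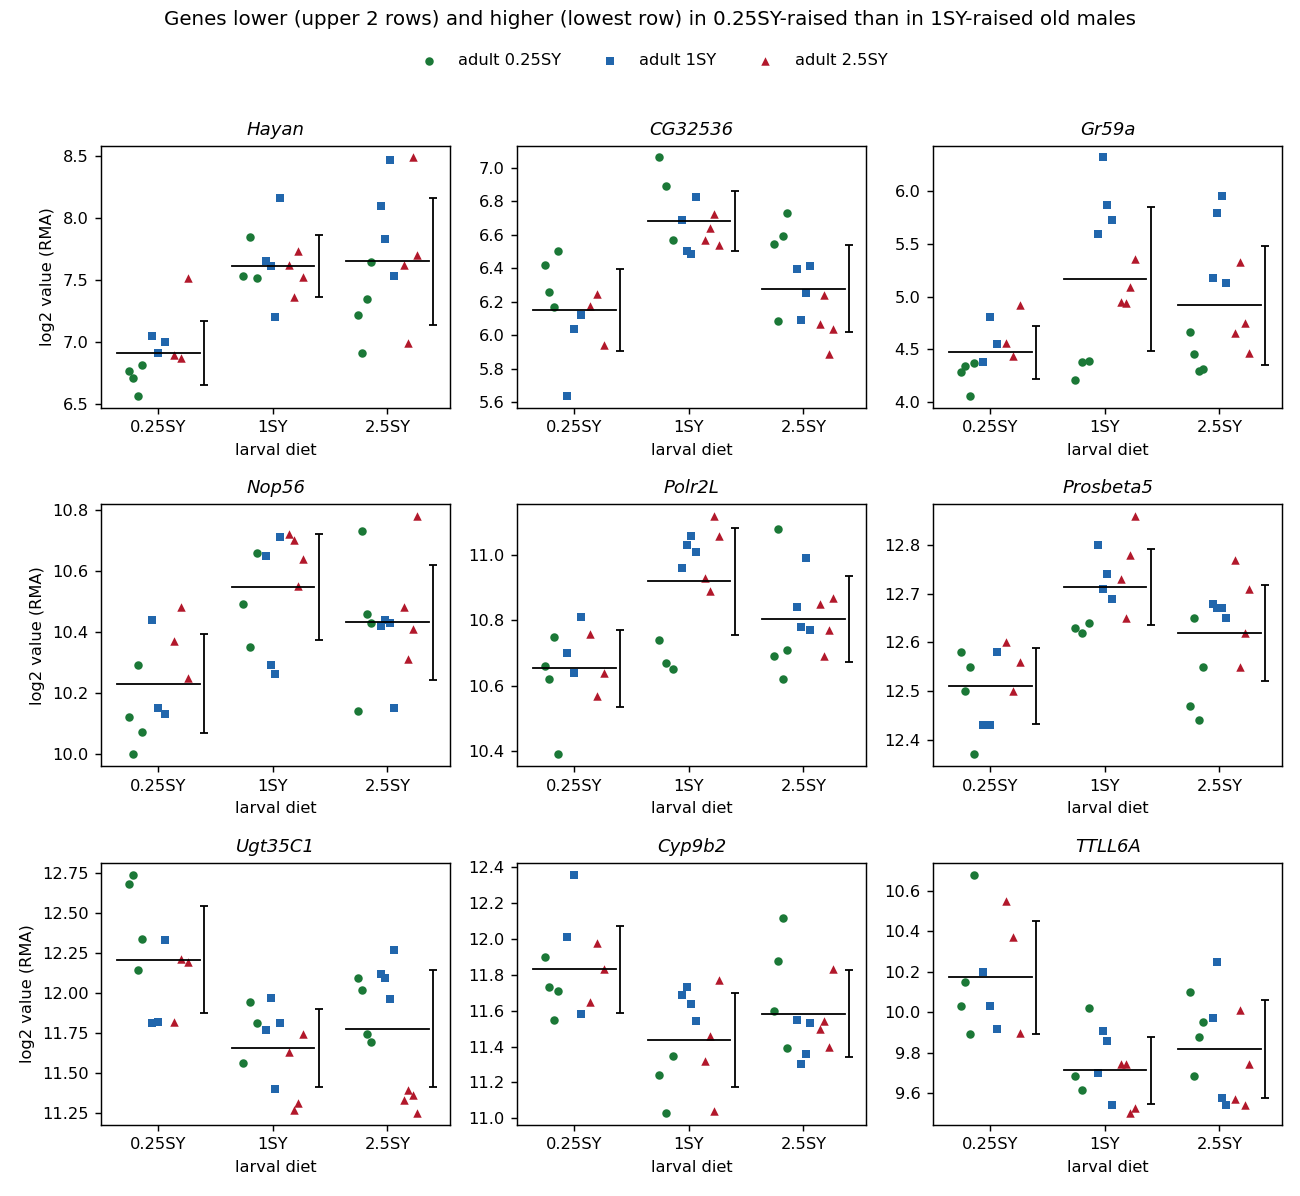
Log2 value of 9 genes in each old male array, larval 0.25SY to the left of larval 1SY in each panel, coloured by adult diet, with a line at the mean and a bar of 1 SD. Prosbeta5 does not overlap between larval 0.25SY and larval 1SY. For Hayan and for CG32536, 9 of 10 arrays of larval 0.25SY lie below all arrays of larval 1SY. Between these larval diets, the high values of Gr59a are found after larval 1SY.

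Detoxification enzymes were among the 26 genes that rose. Ugt35C1, a UDP-glycosyltransferase, had the largest rise, with a lowest, median and highest value of 11.81, 12.20 and 12.74 after larval 0.25SY and of 11.27, 11.74 and 11.97 after larval 1SY (0.51, SE 0.106, adjusted p = 0.0271), and 7 of 10 arrays lay above all arrays of larval 1SY. Of 81 cytochrome P450 genes, 2 rose and 1 fell, around a median of 0.02. That is 2.47% and 1.23% of the list, against 0.217% and 1.79% of all genes. Cyp28a5 had 11.08, 11.49 and 11.70 after larval 0.25SY and 10.87, 11.06 and 11.26 after larval 1SY (0.38, adjusted p = 0.0232), and Cyp9b2 rose by 0.43 (adjusted p = 0.0272). Cyp6t3 fell by 0.24 (adjusted p = 0.0403). None of 34 glutathione S-transferase genes was called. The 10 largest rises also included lncRNA:CR43097, CG31088 and CG10477.

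Several other genes that rose were far higher in males than in females. TTLL6A, of the family that adds glutamates to tubulin, had 9.89, 10.09 and 10.68 after larval 0.25SY and 9.502, 9.70 and 10.02 after larval 1SY (0.45, SE 0.0974, adjusted p = 0.0277). The EF-hand protein gene azot rose by 0.32 (adjusted p = 0.0262), CG2955 by 0.34 and CG2871 by 0.31. In middle-aged flies, males were above females by 5.66 on the log2 scale for TTLL6A, 4.37 for azot, 7.20 for CG2955 and 5.94 for CG2871. The authors state that the sexes were normalized separately. Of 21 genes of testis transcription and meiotic arrest, fest rose (0.27, adjusted p = 0.0277), which is 4.76%, against 0.217% of all genes. The median of the list was 0.12. None of 49 spermatid and sperm genes passed, and 47 of them had a positive difference (median 0.15). Their mean was 10.27, 10.52 and 10.84 at its lowest, median and highest after larval 0.25SY and 10.02, 10.31 and 10.66 after larval 1SY, with wide overlap. Without the 2 kept arrays with raised eggshell and yolk genes, 2 of the 49 were called higher, and with all 24 arrays the median was −0.16.

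Of 26 midgut serine peptidases none was called, 25 had a positive difference and the median was 0.15. None of the 12 carbohydrate digestion genes was called either, and their median was 0.24 on adult 0.25SY food, −0.08 on adult 1SY food and 0.20 on adult 2.5SY food. No list of markers of muscle, eye, neuron, Malpighian tubule, midgut, fat body, hemocyte, testis, accessory gland, female germline, or eggshell and yolk had a gene called. The eggshell and yolk genes had 16 of 18 negative differences and a median of −0.19, and the female germline genes 12 of 18 and −0.04. The arrays of larval 0.25SY spanned 5.69 to 7.135 in the eggshell and yolk mean and those of larval 1SY 5.71 to 8.075. Without the 2 arrays at the top of these ranges, 220 probe sets were lower and 70 higher, 194 of the 273 calls were shared, and 16 ribosome biogenesis genes were lower.

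**Figure D3:**
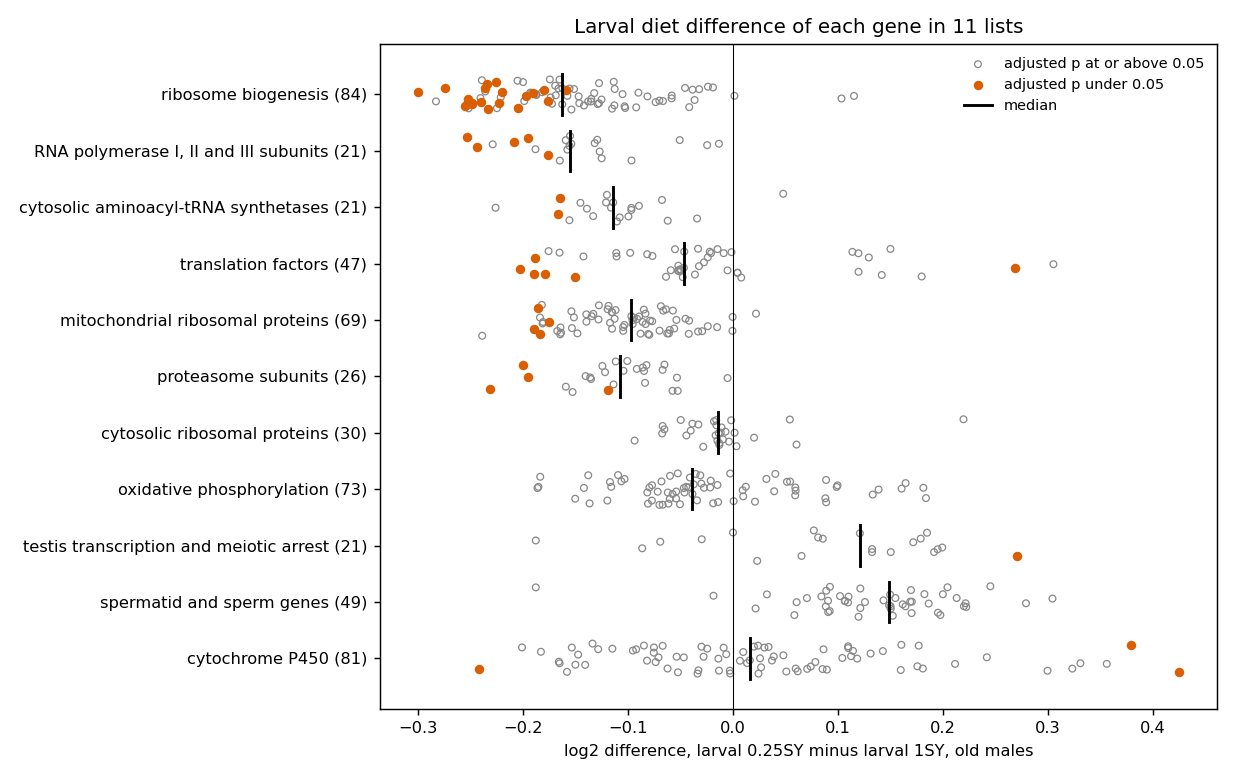
Log2 difference, larval 0.25SY minus larval 1SY in old males, of each measured gene in 11 lists, with filled points for genes at an adjusted p under 0.05 and a bar at the list's median. All 21 RNA polymerase and all 26 proteasome subunits lie below 0, 47 of 49 spermatid and sperm genes lie above it, and the cytosolic ribosomal proteins centre on −0.01.

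The call of many of these genes depended on which arrays entered the test. With all 24 arrays kept, 1 probe set was called. With the 24 arrays weighted by weights estimated from the data, 441 were, of which 236 were among the 273. In a separate estimate over all 36 old male arrays, the 3 doubtful arrays had weights of 0.0222, 0.107 and 0.13. Leaving out 1 further array at a time gave from 48 calls (without array 2 of larval 0.25SY and adult 1SY) to 540 (without array 3 of larval 0.25SY and adult 0.25SY). The ribosome biogenesis median stayed between −0.18 and −0.14 while its number of genes called lower varied from 2 to 28.

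**Figure D4:**
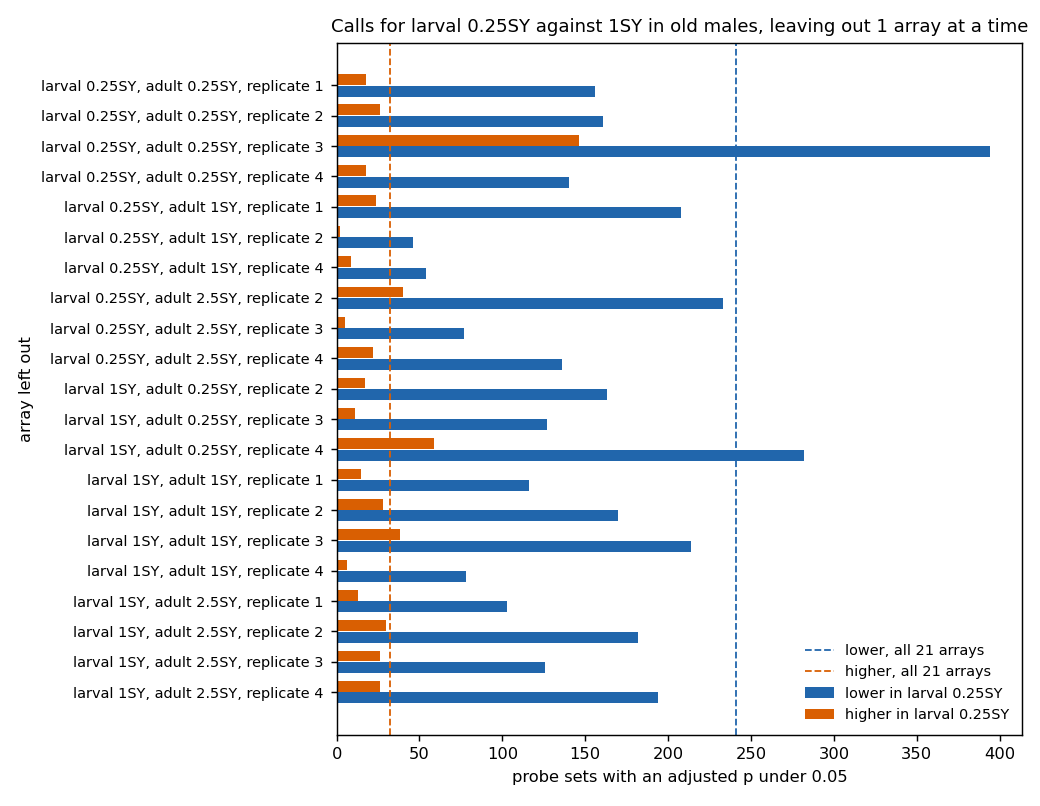
Number of probe sets called lower and higher in old males of larval 0.25SY when each of the 21 arrays was left out in turn, with the number from all 21 arrays for reference. The counts lie between 48 and 540, and calls of lower probe sets outnumber calls of higher ones in each.

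Males raised on the rich larval diet, 2.5SY, gave few calls against either of the other larval diets. They had 2 probe sets lower and none higher than males raised on 1SY (0.0107%, with 1072 at an unadjusted p under 0.05), and none called against males raised on 0.25SY (limma, with 1859 at an unadjusted p under 0.05). CG32536 was 1 of the 2, at −0.42 (adjusted p = 0.0456). The ribosome biogenesis mean was 8.32 ± 0.0667 (SD, n = 10) after larval 0.25SY, 8.47 ± 0.0811 (SD, n = 11) after larval 1SY and 8.41 ± 0.0959 (SD, n = 12) after larval 2.5SY. For RNA polymerase subunits the means were 8.36, 8.51 and 8.46 in that order, and the 12 arrays of larval 2.5SY, from 8.36 to 8.595, reached into both of the other groups. Hayan had a mean of 6.91 after larval 0.25SY, 7.62 after larval 1SY and 7.65 after larval 2.5SY.

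The same contrast was tested at the earlier ages. Among 12 arrays each, middle-aged males had 238 probe sets called (1.27%), of which 162 (0.863%) were higher and 76 (0.405%) lower after larval 0.25SY than after larval 1SY. With centred arrays the balance turned, to 66 higher and 78 lower. In 1-day-old males 1263 were called (6.73%), 659 higher (3.51%) and 604 lower (3.22%), against 380 higher and 798 lower with centred arrays. Of the 84 ribosome biogenesis genes, 1-day-old males had 8 higher and none lower (median 0.07), where 4.8% of all genes were higher and 4.01% lower. Middle-aged males had 1 of the 84 lower (median 0.00), where 1.17% of all genes were higher and 0.568% lower. For RNA polymerase subunits 1 was higher at 1 day (median 0.06) and none was called in middle age (median −0.03). Nop56 differed by 0.14 at 1 day (adjusted p = 0.0738) and by −0.06 in middle age (adjusted p = 0.695). pit was higher by 0.18 at 1 day (adjusted p = 0.00858) and Rrp42 by 0.19 (adjusted p = 0.0284), opposite in sign to old age.

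The mean level of these genes was higher at each later age after every larval diet. The ribosome biogenesis mean was 7.51 ± 0.073, 8.09 ± 0.089 and 8.32 ± 0.067 (SD) at 1 day, middle age and old age after larval 0.25SY, and 7.43 ± 0.055, 8.10 ± 0.042 and 8.47 ± 0.081 after larval 1SY. A test of whether the larval difference changed between middle and old age gave a median of −0.15 over the 84 genes, with none called. It called 1 probe set in all (0.00533% of probe sets and 0.00835% of genes, with 1716 probe sets at an unadjusted p under 0.05). That was CG32536 (−0.61, adjusted p = 0.00185), whose means were 5.93, 6.44 and 6.15 at 1 day, middle and old age after larval 0.25SY and 5.94, 6.39 and 6.68 after larval 1SY.

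**Figure D5:**
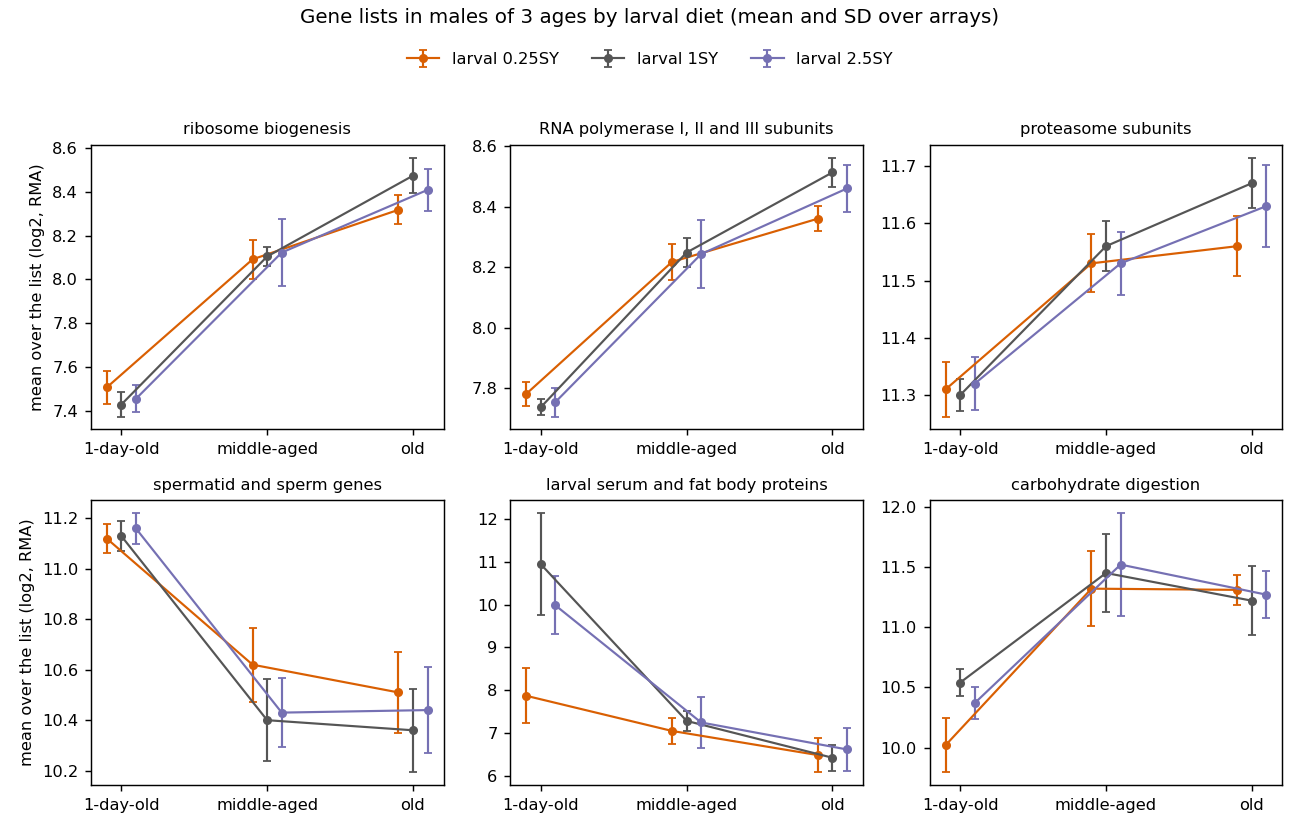
Mean log2 level of 6 gene lists in males at 1 day, middle age and old age for the 3 larval diets, with bars of 1 SD over 10 to 12 arrays. Ribosome biogenesis reaches 8.32 after larval 0.25SY, 8.47 after larval 1SY and 8.41 after larval 2.5SY in old age, whereas at 1 day the means are 7.51, 7.43 and 7.455.

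The probe sets called in old males were followed through arrays that had no part in choosing them. Of the 241 lower ones, 198 (82.2%) were also lower in middle age, where 54.8% of all probe sets were. Of them 4 were called lower there (1.66%, against 0.405% of all probe sets). At 1 day 182 of the 241 had the opposite sign, and 24.5% were lower, against 46.9% of all probe sets. There 23 were called higher (9.54%, against 3.51% of all probe sets) and 2 lower (0.83%, against 3.22%). Of the 32 higher ones, 27 (84.4%) were also higher in middle age, where 45.2% of all probe sets were. Of them 3 were called higher there (9.38%, against 0.863% of all probe sets). CG17107 differed by −0.78 at 1 day (adjusted p = 8.21e-05), by −0.82 in middle age (adjusted p = 0.0493) and by −0.68 in old age. Hayan differed by −0.13, −0.39 and −0.68 at the 3 ages, and the first 2 did not pass.

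Ageing was measured in the males raised on 2.5SY, which shared no array with the comparison above. Old against middle-aged, 2374 probe sets were higher (12.6%) and 2072 lower (11%). Of the 241 probe sets that were lower after larval 0.25SY, 140 were called higher with age (58.1%) and 3 lower. With every array centred on its median these were 117, against 8.76% of all probe sets. Over single genes, 16.5% rose and 11.9% fell with age in those males. Of the 84 ribosome biogenesis genes 68 rose (median 0.26), as did 14 of 21 RNA polymerase subunits (median 0.22), 10 of 26 proteasome subunits (median 0.10) and all 8 CCT subunits (median 0.49). The mitochondrial ribosomal proteins went the other way, with 20 of 69 lower with age (median −0.07). CCT6 rose with age by 0.49 (adjusted p = 1.37e-06), Zip89B by 0.82 (adjusted p = 9.39e-05), Sp212 by 0.56 (adjusted p = 1.91e-05) and Hayan by 0.64 (adjusted p = 0.0131). Ugt35C1, the largest rise after larval 0.25SY, fell with age by 0.54 (adjusted p = 6.91e-05). Of the 32 probe sets that were higher, 26 had a negative difference with age and 3 were called lower.

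The same probe sets were unequally expressed between the sexes. The authors state that normalization was done per sex, so differences between the sexes also carry any difference between the normalizations. In middle-aged flies, 108 of the 241 lower probe sets were more than 2-fold lower in males than in females (44.8%, against 14% of all probe sets), and 18 of the 32 higher ones were more than 2-fold higher in males (56.2%, against 12.6%). With arrays centred, the counts were 152 against 25.1% and 18 against 9.82%. Males minus females, Nop56 differed by −2.41 on the log2 scale, pit by −2.46 and CCT6 by −1.40, whereas Hayan differed by 0.10 and Manf by −0.03.

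Old females gave no calls for larval diet. Between 12 arrays of larval 0.25SY and 12 of larval 1SY, no probe set was called by limma, while 838 had an unadjusted p under 0.05. The ribosome biogenesis median was 0.02, and 93 of the 241 probe sets that were lower in old males were lower in old females (38.6%, against 46.2% of all probe sets). A test of the difference between the sexes was not run.

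Adult diet, tested on the same 21 old male arrays, gave more calls than larval diet. Between adult 0.25SY and 1SY food, 910 probe sets were called (4.85%), 404 higher (2.15%) and 506 lower (2.7%), or 2.85% and 3.56% of genes. Ribosome biogenesis had none called and a median of −0.01, whereas 13 of 26 midgut serine peptidases rose (median 0.52).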

How the data were processed

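RNA from whole bodies of 5 flies per sample was hybridised to Affymetrix Drosophila 2.0 arrays. The log2 expression values were computed with RMA by the authors, who deposited 1 table of all 216 arrays and state that normalization was done per sex. Depth does not apply to arrays, and the number of arrays per group limits the precision. After 183 control probe sets were left out, 18769 probe sets were fitted with limma 3.58.1 in R 4.3.3, with larval diet and adult diet as factors over 21 arrays, and p-values were adjusted by Benjamini-Hochberg over all of them, with calls made at 0.05. Differences are larval 0.25SY minus larval 1SY.

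Probe sets were named from the platform annotation where they carry 1 gene symbol (13647, with 402 carrying several and 4720 none), and 13544 were brought to current RefSeq symbols. A gene is represented by its brightest probe set over the 21 arrays. The same fit was made for other ages, for females, for larval 2.5SY, for the interactions of larval diet with adult diet and with age, for adult diet, and for old against middle-aged males of larval 2.5SY. Male and female values were compared at middle age.

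The arrays, 27 gene lists and 11 marker lists were chosen with earlier results of these data known. Genes named are the 10 largest rises and falls past the threshold, up to 4 called members per list in its more frequent direction and 2 in the other, genes of the interaction tests and some genes of prior interest. All others were chosen after their values were seen. Alternatives covered the arrays kept, array weights, the model, the normalization, a filter on dim probe sets (mean log2 value of at least 5), a replicate block, blocks of 24 provider numbers, and omission of replicates and of single arrays. Omission of the 2 arrays with an eggshell and yolk mean above 7 was added after seeing the data. Replicate numbers did not pair the arrays. The sex controls Yp1 and Mst84Da differed by 0.08 and 0.09 between the larval diets (adjusted p = 0.95 and 0.532).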

Additional observations from a re-analysis of the deposited data

Results flagged for a closer look

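Single arrays were compared with the rest of their group for named genes and gene lists, in 96 groups of values, and 5 held an array far from the others, where chance alone gives about 1 in 20. In old males of larval 0.25SY, array 4 of adult 2.5SY food had a Hayan level of 7.519 on the log2 scale, where the next array had 7.052. Array 3 of adult 0.25SY food had the highest mean of eggshell and yolk genes, 7.135 against 6.246 in the next array, the highest mean of female germline genes, 7.092 against 6.767, and the lowest mean of heat shock protein genes, 11.34 against 11.43. Array 4 of adult 0.25SY food had the lowest mean of muscle genes, 11.39 against 11.54.

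The larval difference in CG32536 changed between middle and old age by −0.6135 on the log2 scale, by the test of that change (limma, adjusted p = 0.00185). The difference was −0.56 in old males and 0.05 in middle-aged males.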

How the results depend on the processing

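Against 273 probe sets called in old males, there was 1 with all 24 arrays, 441 with array weights, 158 without adult diet in the model, 0 with the 6 cohort means in place of arrays, 98 with quantile normalization repeated (27 higher, 71 lower), and 47 with arrays centred on their medians (17 higher, 30 lower). Other models, filters and blocks of provider numbers gave 195 to 402. Leaving out all arrays of 1 replicate number gave 0 to 9 calls, and leaving out 1 array gave 48 to 540. The single arrays that moved the count by over 1.5 times were, of larval 0.25SY, arrays 2 (48) and 4 (63) of adult 1SY, arrays 3 (82) and 4 (158) of adult 2.5SY, and arrays 1 (174), 3 (540) and 4 (158) of adult 0.25SY, and of larval 1SY, arrays 1 (131) and 4 (84) of adult 1SY, arrays 1 (116) and 3 (152) of adult 2.5SY, and arrays 2 (180) and 3 (138) of adult 0.25SY. Of 98 named genes, 85 were called, and of these 61 lost the call with centred arrays, 43 with quantile normalization repeated, 10 with array weights and 84 with all 24 arrays. With all 24 arrays the sign turned for CG2955 (−0.10), CG2871 (−0.0549), fest (−0.29), Yp1 (−0.073), Mst84Da (−0.37) and wa-cup (−0.0024), and Yp1 stood at −0.0448 with array weights and from −0.34 to 0.67 without a replicate number or array. Ribosome biogenesis genes called lower numbered 20 in the comparison as reported, 0 with all 24 arrays, with cohort means and with centred arrays, 5 with quantile normalization repeated and 18 with array weights, with medians from −0.17 to −0.14. The cause of these changes was not tested.

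With a replicate block, 90 probe sets were called (7 higher, 83 lower), 89 of them shared with the 273. Replicate numbers showed no pairing, since the 46 same-numbered pairs correlated at −0.028 on average and 2 of 21 arrays correlated best with their own number. The block gave 2 calls in middle-aged males and 1 between larval 2.5SY and 1SY. For the other comparisons, larval 2.5SY against 1SY gave 1 call with centred arrays and 0 to 2 without a replicate number, and larval 2.5SY against 0.25SY gave 18 with array weights. Middle-aged males gave 144 with centred arrays (66 higher, 78 lower), 452 with the filter on dim probe sets and 0 to 13 without a replicate number. In 1-day-old males centring gave 380 higher and 798 lower, and leaving out a replicate number gave 637 to 844. Without a replicate number, adult diet gave 247 to 690 calls, the change of the larval difference with age 0 to 2, and its change with adult diet 0 to 1, as did leaving out single arrays.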
